A study of Mus musculus with 12 samples.

Results

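The genes described here are *Atf4*, the transcription factor at the centre of the integrated stress response, and 9 genes that act with it or under it: *Atf3*, *Ddit3*, *Trib3*, *Chac1*, *Asns*, *Phgdh*, *Psat1*, *Sesn2* and *Ddit4*. They were chosen by symbol, and each symbol was found once among the 24525 genes counted. All 10 passed the filter on low counts, as 13112 genes did. The values come from RNA-seq of neurospheres, floating cultures of neural stem/progenitor cells (NSPCs), started from E14.5 embryonic forebrain. There were 3 wild-type and 3 *Ythdf2*-/- libraries, all C57BL/6 at passage 1, grown with EGF at 20 ng/ml and bFGF at 10 ng/ml and given no treatment. Ythdf2 binds mRNA that carries N6-methyladenosine (m6A) and promotes its decay. The *Ythdf2*-/- embryos came from intercrosses of heterozygous mice whose floxed allele had been recombined by a ubiquitously expressed Cre, so the deletion took out the 5′ UTR and exon 1 and was not limited to neural cells. The libraries are inputs of an m6A-IP experiment, that is, fragmented mRNA kept aside before the antibody step.

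In the integrated stress response, kinases that sense amino acid shortage, unfolded proteins, haem deficiency or double-stranded RNA phosphorylate the initiation factor eIF2. General translation then falls while translation of the *Atf4* mRNA rises, since its upstream reading frames are bypassed. The Atf4 protein, paired with other bZIP factors, turns on genes for amino acid synthesis, uptake and tRNA charging, and genes that close the response again. The level of *Atf4* mRNA is therefore an incomplete measure of Atf4 activity, and its targets are read beside it. The developing brain relies on serine made from glucose, which feeds glycine, nucleotide and lipid synthesis, its first enzyme Phgdh is abundant in radial glia and astrocytes, and the pathway is one of the Atf4 programmes.

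Atf4 with a C/EBP partner binds a composite site, the C/EBP-ATF response element. The letters TGATGNAA were searched on both strands, TTNCATCA being the same site read on the other strand, in RefSeq promoter windows of GRCm38.p6 that run from 250 bases before to 50 bases after the annotated start. All 10 genes matched the table, and 4 of them held the letters, compared with 4.51% of the 27025 genes with a window and 2.69% of the 10129 tested genes with one. No other motif was searched in the windows. The stretches around the 4 matches are shown because 3 of these genes, *Asns*, *Chac1* and *Trib3*, shared a library pattern in the values below and *Atf3* ran against it. Each is written from 5′ to 3′ on the strand of its gene, with the match in capitals.
*Asns*, chr6:7693210-7693269, minus strand: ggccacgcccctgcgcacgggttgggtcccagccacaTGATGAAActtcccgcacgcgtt
*Chac1*, chr2:119351023-119351082, plus strand: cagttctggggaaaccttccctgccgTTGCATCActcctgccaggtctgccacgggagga
*Atf3*, chr1:191183410-191183469, minus strand: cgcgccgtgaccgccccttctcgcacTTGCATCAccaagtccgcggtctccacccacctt
*Trib3*, chr2:152344028-152344057, minus strand: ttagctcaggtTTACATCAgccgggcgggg
The match began 23 bases before the start of *Asns*, 110 before that of *Atf3* and 193 before that of *Chac1*, and at base 15 of the *Trib3* transcript. Only that of *Asns* read as TGATGNAA on the strand of the gene, and the other 3 read so on the opposite strand. *Atf4*, *Ddit3*, *Phgdh*, *Psat1*, *Sesn2* and *Ddit4* had no match in their windows, which says only that these letters are absent there. A match is a description of letters and no measure of binding.

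**Figure D1:**
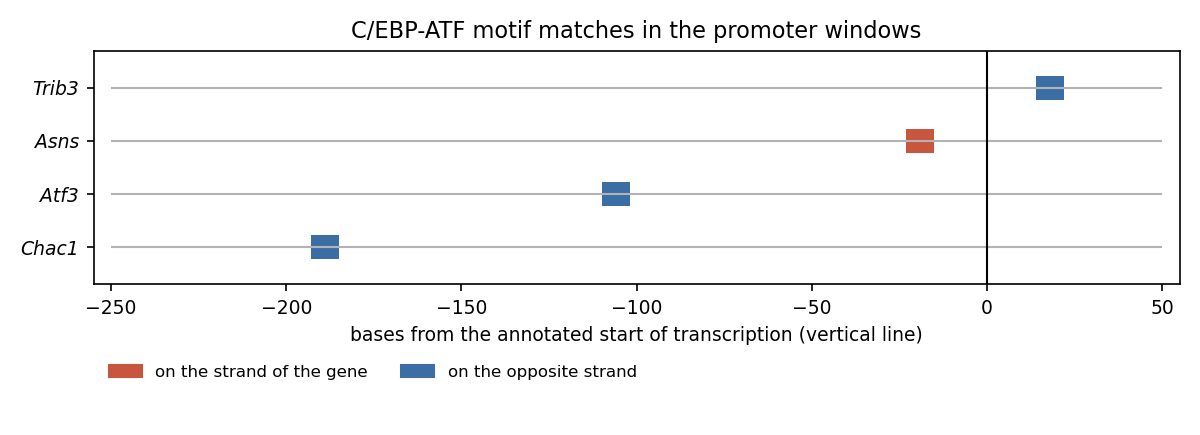
Position of the motif matches (boxes) in the promoter windows of the 4 genes that held one, in bases from the annotated start of transcription (vertical line), with grey lines for the windows of 300 bases. The match of *Asns* lies 23 bases before the start and that of *Trib3* 15 bases after it.

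The libraries held 11029827 to 13185778 counted reads, of which the 10 genes took 0.104% to 0.134%. The targeted gene *Ythdf2* had 71.8, 73.3 and 91.3 CPM, that is, reads scaled to a common library size, in wild-type replicates 1, 2 and 3 and 11.7, 14.6 and 11.1 CPM in *Ythdf2*-/- replicates 1, 2 and 3, with an edgeR log2 fold change of -2.66 and an adjusted p of 0.0547, the smallest of all genes. Wild-type replicate 3 stood apart from the other 5 libraries. It lay at 95.1 on a first principal component that held 70.9% of the variance, where the others lay between -32.5 and -7.51, and its mean Spearman correlation with the others was 0.900 against 0.962 to 0.970. Summed oligodendrocyte lineage markers stood at 5110 CPM in this library, which was the highest for 8 of 12 and the lowest for *Olig1*, *Olig2* and *Cspg4*, and at 1802 to 2232 CPM in the others. Neuronal markers summed to 2654 against 1518 to 1923 CPM, with 7 of 12 highest here and 2 of 12, *Gap43* and *Nefl*, lowest here. Neural progenitor markers summed to 3883 against 5134 to 7033 CPM, carried by *Nes*, *Vim* and *Fabp7*, which were lowest here, while 6 of 10, *Sox2* and *Pax6* among them, were highest here. Mesenchymal markers summed to 32.8 against 3.62 to 7.39 CPM, of which *Pdgfrb* alone gave 31.7 CPM, while *Twist1*, *Acta2* and *Col1a1* were lowest here. Astroglial markers ranged from 4966 CPM in *Ythdf2*-/- replicate 2 to 16845 CPM in wild-type replicate 3. Microglial markers, 3 of 10 at 0 throughout, summed to 3.58 to 6.56 CPM and endothelial markers, 1 of 8 at 0, to 1.28 to 4.10 CPM. Reads of 4 Y-linked genes numbered 1111 to 2147 in wild-type replicates 1 and 2 and *Ythdf2*-/- replicate 3, and 0 or 1 in the remaining libraries. *Eif2s3y*, one of the 4, stood at 35.6, 45.0 and 36.3 CPM in those 3 libraries and at 0 in the others. The part these differences play in the values below was not tested, and each of the 10 fold changes and each pathway list below is given with and without wild-type replicate 3.

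No gene differed between the genotypes past an adjusted p of 0.05 by the quasi-likelihood test of edgeR (0 of 13112, or 0%, with 476 at an unadjusted p under 0.05, 0 in limma-voom, 6 higher and 25 lower in DESeq2, and 333 and 299 in limma-voom with sample quality weights), and none of the 10 genes passed it in any of these. In edgeR each had an adjusted p of 0.999. The fold changes below are *Ythdf2*-/- relative to wild type. Of the 10 fold changes, 8 were above 0 and 2 below, with a median log2 fold change of 0.29 beside -0.01 over all genes tested, of which 48.1% were above 0. An unadjusted p under 0.05 was found for 3 of 10, *Chac1* and *Ddit4* on the higher side and *Atf3* on the lower, where 3.63% of all genes tested had one. The same 3 genes had no overlap between the 6 libraries' values by genotype, a pattern found in 10.2% of all genes tested, and 2 of 10 had all *Ythdf2*-/- values on the higher side, as 5.24% of all genes did. Without wild-type replicate 3, 1 of the 10 genes, *Ddit4*, kept an unadjusted p under 0.05 where 16.6% of 13283 genes did, 4 had no overlap where 38.9% did, and the median log2 fold change was 0.21. The 10 genes were chosen with earlier results of these data known, so these shares are descriptions and no test of the set. Bulk RNA cannot tell fewer cells of a type from less RNA per cell, and this holds for every level below.

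**Figure D2:**
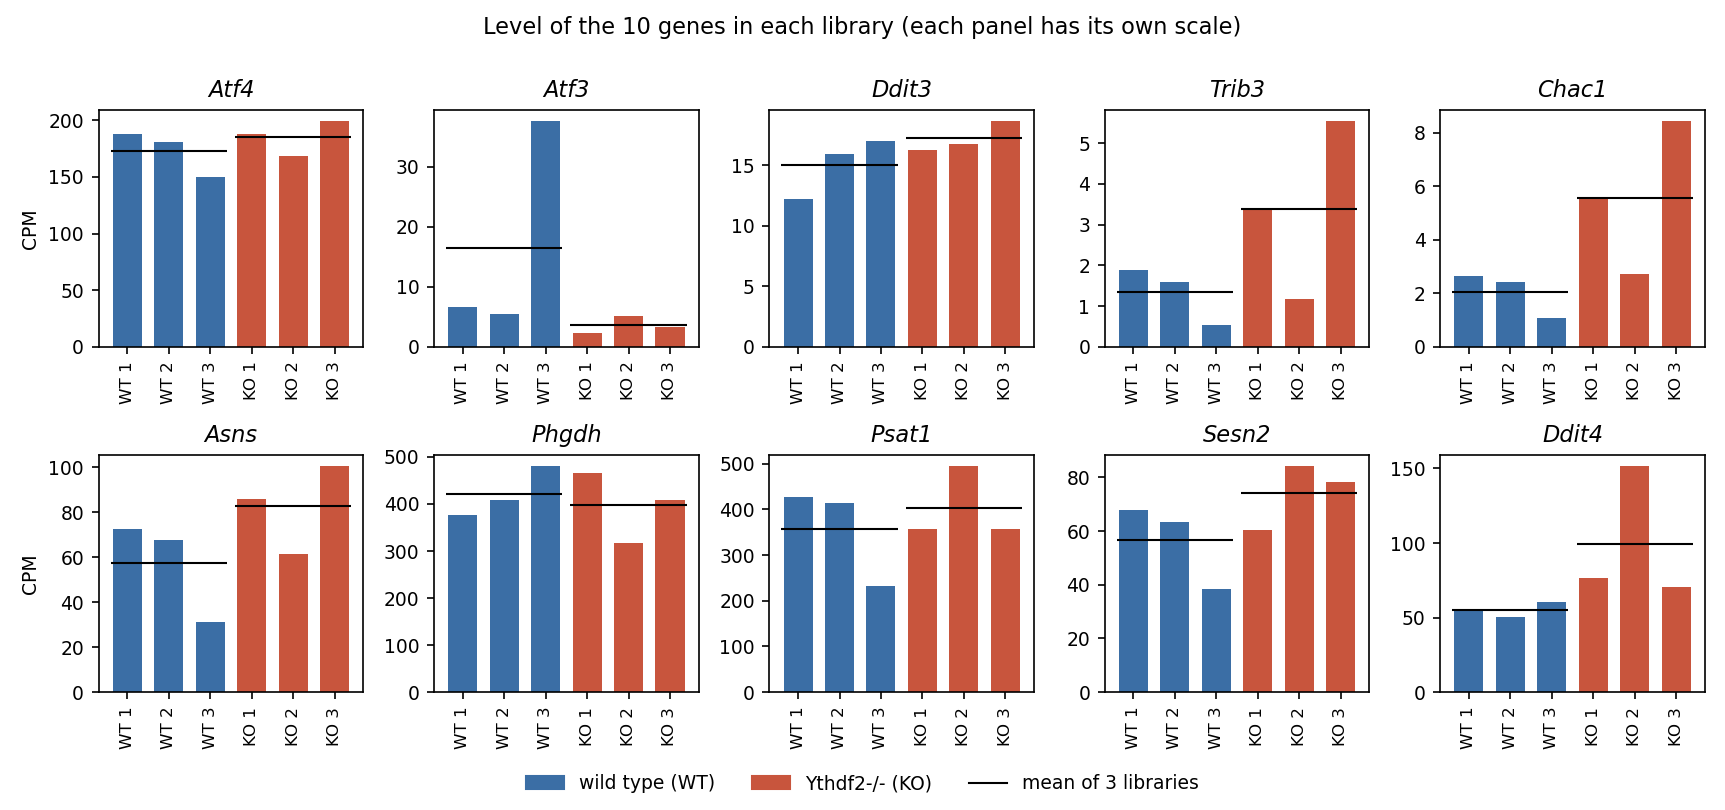
Level of each of the 10 genes in CPM (vertical axis from 0, a separate scale per panel) in the 3 wild-type (WT, blue) and 3 *Ythdf2*-/- (KO, red) libraries, each bar 1 library and each black line the mean of 3. *Atf3* stands at 37.6 CPM in wild-type replicate 3 and under 7 CPM elsewhere, and *Ddit4* at 152 CPM in *Ythdf2*-/- replicate 2.

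The level of *Atf4* mRNA was similar in both genotypes within its spread. It stood at 187.6, 181.2 and 150.2 CPM in wild-type replicates 1, 2 and 3 and at 188.1, 168.3 and 199.4 CPM in *Ythdf2*-/- replicates 1, 2 and 3. The lowest library was wild-type replicate 3 and the highest *Ythdf2*-/- replicate 3, and the genotypes overlapped. The means were 173 ± 20.0 and 185 ± 15.8 CPM (SD, n = 3 each), the log2 fold change was 0.10 (SE 0.143), and its 95% interval in edgeR ran from -0.25 to 0.44. Its log2 fold change without wild-type replicate 3 was 0.0064. Across the 6 libraries the highest value was 1.33 times the lowest, the narrowest range among the 10 genes. The gene lies at chr15:80255184-80257545 on the plus strand.

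*Atf3* and *Ddit3* encode bZIP factors that are induced with Atf4 under stress, *Atf3* also being an early response gene and *Ddit3* (CHOP) a promoter of cell death in prolonged stress. *Atf3* stood at 6.58, 5.41 and 37.6 CPM in wild-type replicates 1, 2 and 3 and at 2.39, 5.10 and 3.38 CPM in *Ythdf2*-/- replicates 1, 2 and 3. Every *Ythdf2*-/- value lay below every wild-type value, but wild-type replicate 2 and *Ythdf2*-/- replicate 2 were close, and 1 library, wild-type replicate 3, held most of the wild-type signal. The log2 fold change was -2.18 (SE 0.833, 95% interval -4.20 to -0.17, unadjusted p = 0.0379 in edgeR), and without wild-type replicate 3 it was -0.72 (unadjusted p = 0.0865). In edgeR the unadjusted p was 0.107, 0.0638 and 0.101 without *Ythdf2*-/- replicates 1, 2 and 3. It was 0.0226 and 0.0163 without wild-type replicates 1 and 2. With the replicate number as a block in edgeR it was 0.0975, and in limma-voom 0.120. *Jun*, which encodes an early response partner of Atf3, stood highest in the same library, at 654 CPM against 145 to 193 CPM in the other 5. *Ddit3* stood at 12.2, 15.9 and 17.0 CPM in wild-type and 16.3, 16.7 and 18.6 CPM in *Ythdf2*-/- replicates 1, 2 and 3. Its genotypes overlapped, with wild-type replicate 1 the lowest library. The log2 fold change was 0.19 (SE 0.191), 0.29 without wild-type replicate 3 and 0.065 without wild-type replicate 1. *Ddit3* overlaps *Mbd6* and *Mars1* on the opposite strand, and since the strand setting of the counting is not given in the sources used here, its count is uncertain.

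*Trib3* and *Chac1* are targets of Atf4 and Ddit3: the pseudokinase Trib3 binds Atf4 and restrains it, and Chac1 breaks down glutathione. Both were rare transcripts, counted with 6 to 69 and 12 to 105 reads per library. *Chac1* stood at 2.65, 2.44 and 1.10 CPM in wild-type and at 5.54, 2.74 and 8.44 CPM in *Ythdf2*-/- replicates 1, 2 and 3. All *Ythdf2*-/- values lay above all wild-type values, although *Ythdf2*-/- replicate 2 exceeded wild-type replicate 1 by little. The *Ythdf2*-/- mean of 5.57 ± 2.85 CPM was 2.70 times the wild-type mean of 2.06 ± 0.842 CPM (SD, n = 3 each), and the log2 fold change was 1.42 (SE 0.531, 95% interval 0.14 to 2.71, unadjusted p = 0.0348 in edgeR). Without wild-type replicate 3 it was 1.13 (unadjusted p = 0.0618 in edgeR), and without *Ythdf2*-/- replicate 3 it was 0.99 (unadjusted p = 0.124 in edgeR). The unadjusted p in edgeR was 0.0613 without wild-type replicate 2 and 0.0734 without *Ythdf2*-/- replicate 1. It was 0.0480 without wild-type replicate 1 and 0.0138 without *Ythdf2*-/- replicate 2. With the replicate number as a block in edgeR it was 0.109, and in limma-voom 0.0560. *Trib3* stood at 1.88, 1.60 and 0.549 CPM in wild-type and at 3.41, 1.18 and 5.55 CPM in *Ythdf2*-/- replicates 1, 2 and 3. *Ythdf2*-/- replicate 2 lay below wild-type replicates 1 and 2, so the genotypes overlapped, while *Ythdf2*-/- replicates 1 and 3 exceeded every wild-type value. The log2 fold change was 1.31 (SE 0.682, unadjusted p = 0.0998 in edgeR), and 0.95 without wild-type replicate 3. It was 0.76 (unadjusted p = 0.336) without *Ythdf2*-/- replicate 3 and 1.73 (unadjusted p = 0.0307) without *Ythdf2*-/- replicate 2 in edgeR. In a two-sided exact permutation test *Chac1*, like *Atf3* and *Ddit4*, reached 0.1, the smallest p that 3 libraries against 3 allow, and *Trib3* had 0.3.

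*Asns* encodes asparagine synthetase, which makes asparagine from aspartate and glutamine and is the classical gene of the amino acid response. It stood at 72.8, 67.7 and 31.4 CPM in wild-type and at 85.9, 61.5 and 101 CPM in *Ythdf2*-/- replicates 1, 2 and 3. *Ythdf2*-/- replicates 1 and 3 were the highest libraries, but *Ythdf2*-/- replicate 2 fell between the wild-type values, so the genotypes overlapped. The log2 fold change was 0.53 (SE 0.351, 95% interval -0.32 to 1.38), 0.23 without wild-type replicate 3 and 0.36 without *Ythdf2*-/- replicate 3. It was 0.74 without wild-type replicate 1, 0.71 without *Ythdf2*-/- replicate 2 and 0.87 with the presence of Y-linked reads as a term in the fit (unadjusted p = 0.00968 in edgeR).

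*Phgdh* and *Psat1* encode the first and the second enzyme of serine synthesis from 3-phosphoglycerate, and *Psph* the last. *Phgdh* stood at 378, 409 and 480 CPM in wild-type and at 466, 317 and 408 CPM in *Ythdf2*-/- replicates 1, 2 and 3. *Psat1* stood at 428, 413 and 232 CPM in wild-type and at 357, 494 and 358 CPM in *Ythdf2*-/- replicates 1, 2 and 3. Neither separated the genotypes: the log2 fold change was -0.09 (SE 0.195) for *Phgdh* and 0.17 (SE 0.280) for *Psat1*, and each changed sign without wild-type replicate 3, to 0.01 and -0.06. The library with most *Phgdh*, wild-type replicate 3, had least *Psat1*, and the library with least *Phgdh*, *Ythdf2*-/- replicate 2, had most *Psat1*. The ratio of *Phgdh* to *Psat1* CPM was 0.883, 0.988 and 2.07 in wild-type and 1.31, 0.641 and 1.14 in *Ythdf2*-/- replicates 1, 2 and 3, so the ratio overlapped between the genotypes as well. *Psph*, named here after its values were seen, stayed between 55.9 and 65.3 CPM in all 6 libraries.

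*Sesn2* and *Ddit4* encode inhibitors of mTORC1, the kinase complex that couples amino acids and growth factors to protein synthesis: Sesn2 senses leucine and acts through GATOR2, and Ddit4 (REDD1) acts through the Tsc1-Tsc2 complex. *Ddit4* is also induced by hypoxia, glucocorticoids and p53. It stood at 55.1, 50.5 and 60.2 CPM in wild-type and at 76.6, 152 and 70.7 CPM in *Ythdf2*-/- replicates 1, 2 and 3. All *Ythdf2*-/- values lay above all wild-type values, and *Ythdf2*-/- replicate 2 was far above the other two. The means were 55.2 ± 4.85 and 99.6 ± 45.1 CPM (SD, n = 3 each), and the log2 fold change was 0.85 (SE 0.312, 95% interval 0.10 to 1.61, unadjusted p = 0.0325 in edgeR). Without wild-type replicate 3 it was 0.92 (unadjusted p = 0.0396 in edgeR), and without *Ythdf2*-/- replicate 2 it was 0.43 (unadjusted p = 0.0261 in edgeR), so its size rested on the latter library. It was 0.85 without wild-type replicate 1 (unadjusted p = 0.0729 in edgeR), 0.79 without wild-type replicate 2 (unadjusted p = 0.0871 in edgeR), 0.67 with the same term for Y-linked reads (unadjusted p = 0.0675 in edgeR) and 0.76 with the replicate number as a block (unadjusted p = 0.0763 in edgeR). In the library with most *Ddit4*, astroglial markers summed to the lowest value of the 6 libraries, with 8 of 12 lowest there, and the part of this in the result was not tested. Neural progenitor markers went both ways there, with 3 of 10 highest and *Hes1* lowest. *Sesn2* stood at 68.0, 63.4 and 38.4 CPM in wild-type and at 60.4, 84.2 and 78.4 CPM in *Ythdf2*-/- replicates 1, 2 and 3. Its genotypes overlapped, since *Ythdf2*-/- replicate 1 lay below wild-type replicates 1 and 2, and the log2 fold change was 0.39 (SE 0.252) and 0.18 without wild-type replicate 3.

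**Figure D3:**
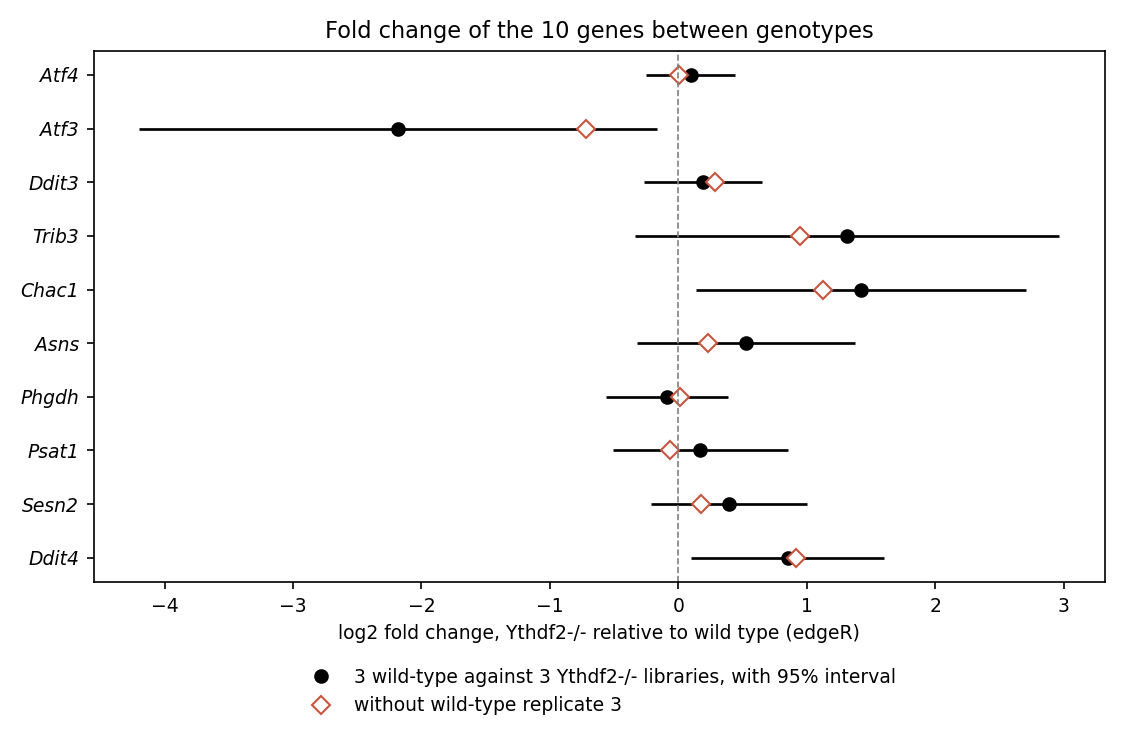
Log2 fold change of the 10 genes, *Ythdf2*-/- relative to wild type, from edgeR (horizontal axis), with 95% intervals over all 6 libraries (black) and the value without wild-type replicate 3 (open diamonds). The intervals of *Atf3*, *Chac1* and *Ddit4* do not reach 0, and the point of *Atf3* moves from -2.18 to -0.72.

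Leaving aside genotype, the 10 genes covered a wide span of levels. Per length, as RPKM, that is, CPM divided by the gene length in kilobases, averaged over 6 libraries, the order was *Phgdh* at 219, *Psat1* at 175, *Atf4* at 116, *Ddit4* at 45.9, *Asns* at 36.3, *Sesn2* at 24.7, *Ddit3* at 19.1, *Atf3* at 5.10, *Chac1* at 2.43 and *Trib3* at 1.15. The serine enzymes and *Atf4* thus formed an upper group. The lowest RPKM of *Atf4* in any library was 97.5 and the highest of *Ddit4* 89.9, and this was the only step in the order where the ranges of neighbouring genes did not overlap. The stress effectors *Atf3*, *Chac1* and *Trib3* were lowest and also varied most, with the highest library 15.8, 7.69 and 10.1 times the lowest, compared with 3.21 for *Asns*, 3.003 for *Ddit4*, 2.19 for *Sesn2*, 2.13 for *Psat1*, 1.53 for *Ddit3* and 1.52 for *Phgdh*.

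The genes fell into patterns across libraries that did not follow the genotype alone. *Asns* and *Trib3* ordered the 6 libraries exactly as *Atf4* did, with *Ythdf2*-/- replicate 3 highest, then *Ythdf2*-/- replicate 1, wild-type replicates 1 and 2, *Ythdf2*-/- replicate 2, and wild-type replicate 3 lowest. This order was found in 115 of the 13112 genes tested (0.877%), these 3 included. *Chac1* differed from it only in that *Ythdf2*-/- replicate 2 stood just above wild-type replicates 1 and 2. As a description over 6 libraries of log2 CPM, Pearson's r was 0.97 for *Atf4* with *Asns*, 0.94 for *Atf4* with *Trib3* and 0.98 for *Trib3* with *Chac1*, and it was 0.92, 0.90 and 0.96 over the 5 libraries without wild-type replicate 3. It was weaker for *Atf4* with *Chac1*, at 0.88 over 6 and 0.74 over 5 libraries. *Atf3* ran the other way, with r = -0.95 with *Asns* over 6 libraries and -0.69 over 5.

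*Sesn2*, *Psat1* and *Ddit4* were each highest in *Ythdf2*-/- replicate 2, and their orders of the remaining libraries differed. *Psat1* and *Phgdh* ran opposite to each other, with r = -0.84 over 6 libraries and -0.91 over 5. *Psat1* and *Asns*, enzymes of the same Atf4 programme, had r = 0.61 over 6 libraries and -0.91 over the 5 without wild-type replicate 3, so the positive value rested on that library. These points share the libraries and their normalization, and the 45 pairs of 10 genes were all computed.

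**Figure D4:**
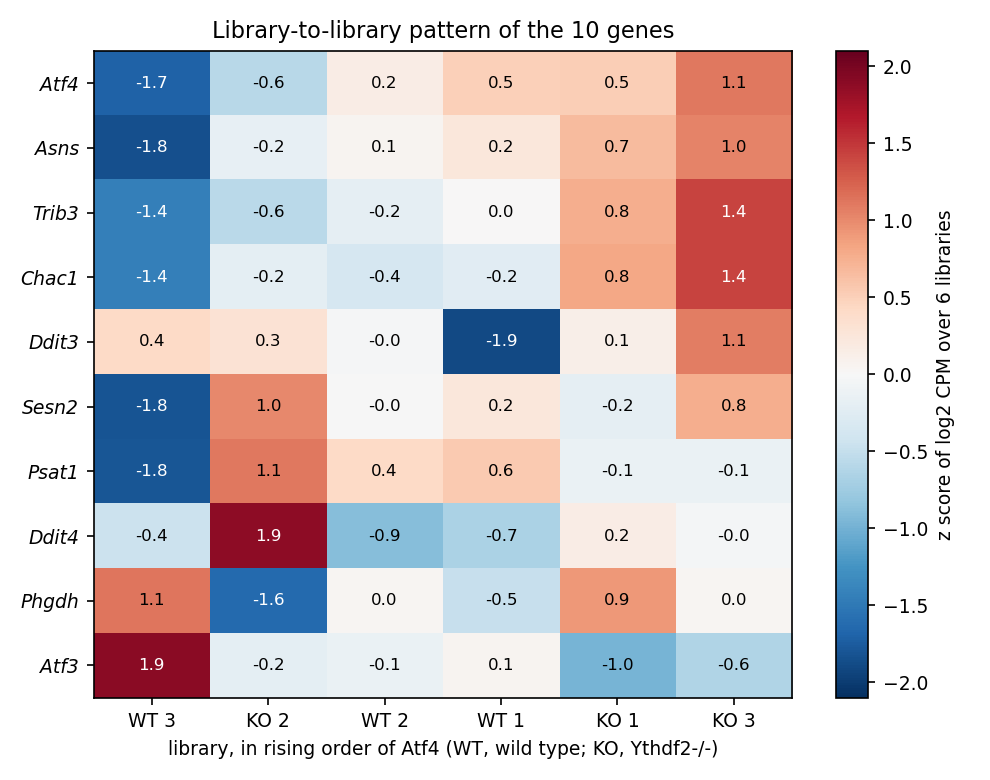
Heat map of the z score of log2 CPM of each gene (rows) over the 6 libraries (columns, in rising order of *Atf4*), red above and blue below the mean of the gene. *Atf4*, *Asns*, *Trib3* and *Chac1* are lowest in wild-type replicate 3 and highest in *Ythdf2*-/- replicate 3, and *Atf3* is highest in wild-type replicate 3.

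Upstream of *Atf4*, 9 genes for eIF2 kinases, eIF2 phosphatase subunits and related factors were tested. None of the 9 had an unadjusted p under 0.05 in edgeR, 4 had a fold change above 0 and 5 below, and the median log2 fold change was -0.13. With wild-type replicate 3 left out the split was 5 and 4 and the median 0.01, with 1 of 9 at an unadjusted p under 0.05, on the lower side, where 16.6% of all genes had one. *Eif2s1*, the phosphorylated subunit of eIF2, stood at 175, 164 and 76.1 CPM in wild-type and 124, 98.2 and 124 CPM in *Ythdf2*-/- replicates 1, 2 and 3, and *Ppp1r15b*, the constitutive phosphatase subunit, between 126 and 166 CPM in all libraries. Wild-type replicate 3 was again the library at the edge, here with least *Eif2s1*. It also held most *Ppp1r15a*, the other phosphatase subunit, named here after its values were seen. *Ppp1r15a* stood at 31.6, 31.5 and 87.0 CPM in wild-type and 29.5, 38.3 and 22.5 CPM in *Ythdf2*-/- replicates 1, 2 and 3. Its log2 fold change was -0.73 (SE 0.456). Among 8 other transcription factors of the response, 5 were above 0 and 3 below (median 0.07), none with an unadjusted p under 0.05, and without wild-type replicate 3 the split was the same, the median was 0.06 and again none had one. *Nfe2l2*, which encodes the antioxidant regulator Nrf2, had a log2 fold change of 0.14 and *Jun* one of -0.98. *Nupr1*, a small stress-induced chromatin protein, was the one with no overlap between genotypes, at 2.22, 4.35 and 1.10 CPM in wild-type and 5.45, 4.36 and 6.11 CPM in *Ythdf2*-/- replicates 1, 2 and 3 (log2 fold change 1.04, SE 0.502). The nearest values of *Nupr1*, 4.35 and 4.36 CPM, were practically level.

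Downstream of *Atf4*, the medians of the metabolic lists lay between 0.05 and 0.11. Of 17 serine, glycine and one-carbon enzymes beside *Phgdh* and *Psat1*, 11 were above 0 and 6 below (median 0.11). The split without wild-type replicate 3 was 9 and 8 and the median 0.0082, with 7 of 17 at an unadjusted p under 0.05, 3 higher and 4 lower, where 16.6% of all genes had one. One enzyme of the glycine cleavage system, *Amt*, chosen after its values were seen, had an unadjusted p of 0.0230 in edgeR (adjusted p 0.999), at 50.4, 54.0 and 57.0 CPM in wild-type and 78.1, 67.1 and 65.3 CPM in *Ythdf2*-/- replicates 1, 2 and 3. The most abundant, the folate enzyme *Aldh1l1* and the mitochondrial serine carrier *Sfxn1*, had log2 fold changes of 0.11 and 0.15. Of 16 other amino acid synthesis enzymes, 9 were above 0 and 7 below (median 0.09), among them *Glul*, glutamine synthetase, at 0.49 (SE 0.366) and the alanine aminotransferase *Gpt2* at 0.33 (SE 0.255). Leaving out wild-type replicate 3, the split was 8 and 8 and the median -0.0014, with 2 of 16 at an unadjusted p under 0.05, both lower, beside the same 16.6%. Of 9 amino acid transporters, 7 were above 0 and 2 below (median 0.09), with the heterodimer partners *Slc7a5* and *Slc3a2* at 0.30 and 0.09. Their split without wild-type replicate 3 was 4 and 5 (median -0.02), none at an unadjusted p under 0.05. Of 12 cytosolic tRNA synthetases, 9 were above 0 and 3 below (median 0.05), with *Aars* at 0.18 and *Eprs* at -0.05, and without wild-type replicate 3 the split was 3 and 9 (median -0.07), none at an unadjusted p under 0.05. With all 6 libraries none of the enzymes other than *Amt*, the transporters or the synthetases had an unadjusted p under 0.05.

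The same lists can be set against the library pattern of *Asns*, *Chac1* and *Trib3*, taken as the mean of their z scores. Of 10949 genes, 10.3% had r of at least 0.8 with it over the 6 libraries. The count was 7 of 12 for the tRNA synthetases, 6 of 15 for the amino acid synthesis enzymes, 3 of 6 for the transcription factors, 4 of 17 for the serine, glycine and one-carbon enzymes and 1 of 8 for the transporters. Among lists outside the Atf4 programme it was 2 of 6 for the hypoxia genes, 2 of 8 for the glucocorticoid genes, 1 of 17 for the other mTORC1 regulators, and 0 for the 10 p53 targets and the 20 genes of the unfolded protein response, and it was 1 of 9 for the eIF2 kinases and phosphatase subunits. By the median r the order was different. It was 0.82 for the tRNA synthetases, 0.62 for the serine, glycine and one-carbon enzymes, 0.61 for both the transporters and the amino acid synthesis enzymes and 0.35 for the transcription factors, beside 0.69 for the hypoxia genes, 0.65 for the p53 targets, 0.49 for the unfolded protein response and 0.04 over all genes. The hypoxia and p53 lists thus lay above every Atf4 list but the tRNA synthetases. The oligodendrocyte lineage markers had a median r of -0.85, but 2 of 10, *Olig2* and *Olig1*, had r of 0.89 and 0.85. The neuronal markers had a median r of -0.63 and the astroglial markers of -0.12. The part of these markers in the pattern was not tested. With wild-type replicate 3 left out, r of at least 0.8 was reached by 1 of 12 tRNA synthetases, 4 of 15 amino acid synthesis enzymes, 2 of 6 transcription factors, 2 of 17 serine, glycine and one-carbon enzymes and 3 of 8 transporters, against 9.38% of all genes, so the count for the tRNA synthetases rested on that library. Outside the Atf4 programme it was reached by 3 of 8 glucocorticoid genes, 1 of 6 hypoxia genes and 2 of 17 other mTORC1 regulators. The count was 0 of 10 for the p53 targets and 1 of 20 for the unfolded protein response. It was 2 of 9 for the eIF2 kinases and phosphatase subunits and 4 of 12 for the astroglial markers. Without that library the median r was 0.70 for the transporters, 0.67 for the tRNA synthetases and 0.62 for the transcription factors. The amino acid synthesis enzymes had 0.60 and the serine, glycine and one-carbon enzymes 0.32. Among the other lists it was 0.64 for the hypoxia genes, 0.59 for the glucocorticoid genes and -0.34 for the p53 targets. The unfolded protein response had 0.09 and all genes -0.02. The astroglial markers had 0.54, the neuronal markers 0.03 and the oligodendrocyte lineage markers -0.63. Genes of a list share their libraries, so these are descriptions. *Got1*, *Got2*, *Aldh18a1*, *Shmt2* and *Gldc*, which make or use aspartate, proline and glycine, were the 5 genes of the 134 tested in the pathway lists that ordered all libraries as *Atf4* did. The motif TGATGNAA occurred in 5 of 8 tRNA synthetases with a promoter window, in 2 of 6 transporters, in 2 of 11 amino acid synthesis enzymes and in 0 of 14 serine, glycine and one-carbon enzymes. It occurred in 2 of 8 of the other transcription factors, in 1 of 17 genes of the unfolded protein response and in 0 of the windows of the eIF2, mTORC1, hypoxia, glucocorticoid and p53 lists, beside 4.51% of the 27025 genes with a window.

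Other arms of the stress response and other known inputs of *Sesn2* and *Ddit4* were read for comparison. Of 20 genes of the Xbp1 and Atf6 arms of the unfolded protein response, 3 were above 0 and 17 below, but the median log2 fold change was only -0.06 and none had an unadjusted p under 0.05 in edgeR, with the chaperones *Canx* at -0.02 and *Hsp90b1* at 0.01. Without wild-type replicate 3 the split was 5 and 15 and the median -0.23, with 4 of 20 at an unadjusted p under 0.05, all lower, where 16.6% of all genes had one, and 10 lower and 2 higher without overlap, where 38.9% of all genes had none. Of 18 other mTORC1 regulators, 10 were above 0 and 8 below (median 0.02, none at an unadjusted p under 0.05), with *Mtor* at 0.27 and *Sesn3* at 0.55 (SE 0.368). Once wild-type replicate 3 was left out, the split was 11 and 7 (median 0.09), with 6 of 18 at an unadjusted p under 0.05, 4 higher and 2 lower, and 11 of 18 without overlap, where 16.6% and 38.9% of all genes were so. *Sesn3* was, like *Ddit4*, highest in *Ythdf2*-/- replicate 2, at 224 CPM against 82.2 to 154 CPM in the others. *Ddit4l*, named here after its values were seen, had a log2 fold change of -1.02 (SE 0.552). It stood at 38.3, 39.8 and 8.41 CPM in wild-type and 14.3, 12.4 and 16.2 CPM in *Ythdf2*-/- replicates 1, 2 and 3.

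Of 10 p53 target genes, 7 were above 0 and 3 below (median 0.04), with *Ccng1* at -0.03 and *Trp53inp1* at 0.47. This turned without wild-type replicate 3, to 2 above and 8 below (median -0.21), with 4 of 10 at an unadjusted p under 0.05 and 6 of 10 without overlap, all on the lower side, where 16.6% and 38.9% of all genes were so in either direction. *Trp53inp1* was also highest in *Ythdf2*-/- replicate 2, at 344 CPM against 150 to 236 CPM elsewhere, while *Ccng1* was not, at 415 CPM within a range of 196 to 560 CPM. Of 9 hypoxia genes 7 were tested, and 4 were above 0 and 3 below (median 0.08), as they were without wild-type replicate 3 (median 0.14, none at an unadjusted p under 0.05). *Vegfa*, with a log2 fold change of 0.49, and the glucose transporter *Slc2a1*, with -0.07, both stood lowest in *Ythdf2*-/- replicate 2. The other tested hypoxia genes, *Pdk1*, *Adm*, *Bnip3*, *Egln3* and *Ndrg1*, were not lowest there. Of 8 genes of the glucocorticoid receptor and its targets, 5 were above 0 and 3 below (median 0.13), with the receptor *Nr3c1* at 0.21 and *Per1* at 0.30. The split was 6 and 2 without wild-type replicate 3 (median 0.13), with 2 of 8 at an unadjusted p under 0.05, 1 in each direction, beside the same 16.6%. With all 6 libraries none of the p53, hypoxia or glucocorticoid genes had one.

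**Figure D5:**
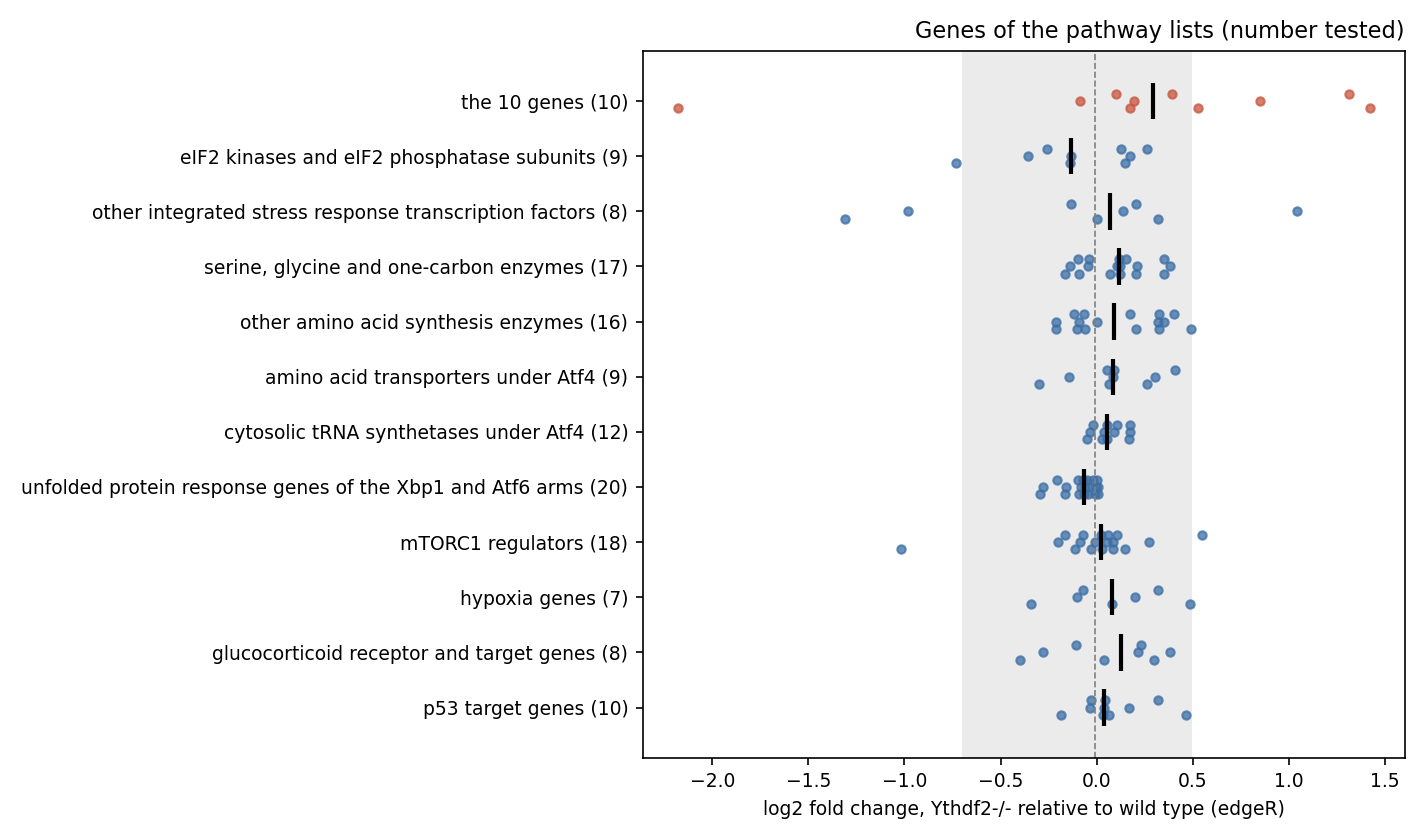
Log2 fold change, *Ythdf2*-/- relative to wild type, from edgeR (horizontal axis), for the 10 genes (red points) and the genes of 11 pathway lists (blue points), with black bars at each median. The grey band runs from the 5th to the 95th percentile of all 13112 genes tested, -0.70 to 0.49, and *Atf3*, *Chac1*, *Trib3*, *Ddit4* and *Asns* lie outside it.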

How the data were processed

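Of 12 samples, the 6 input libraries were analysed and the 6 m6A-IP samples were not analysed here. The authors aligned reads to mm10 with TopHat. The submitters' processing notes name featureCounts, RSEM 1.2.15 and Bowtie2 2.2.9. The authors deposited raw counts per gene, unnormalized, and a second table per library with expected counts, TPM and FPKM. Expected counts of the 10 genes summed to 0 to 134 over 6 libraries, compared with 174 to 29864 raw counts, so FPKM served only as an alternative, TPM was not used, and the gene lengths of that table gave RPKM.

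Genes passing filterByExpr were tested with edgeR 4.0.16 (TMM, robust glmQLFit, glmQLFTest, genotype as the only term, Benjamini-Hochberg adjustment) in R 4.3.3. Log2 CPM used a prior count of 2. DESeq2 1.42.0 and limma 3.58.1 gave alternatives. Sequences were read with Python 3.11.15.

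The 10 genes and all lists were chosen with earlier results of these data known. Named list genes were the 2 most abundant per list, any with an adjusted p under 0.05 and up to 4 with an absolute log2 fold change of at least 1 and no overlap. The 5 closest genes in pattern had a mean of at least 5 CPM. Marker lists covered 7 cell types.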

Additional observations from a re-analysis of the deposited data

How the results depend on the processing

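The 10 genes kept an adjusted p above 0.05 under every alternative run, the smallest being 0.0622 for *Chac1* in limma-voom with sample quality weights, which gave wild-type replicate 3 a weight of 0.0901. Genes passing an adjusted p of 0.05 numbered 0 in either direction with edgeR, 6 higher and 25 lower with DESeq2, 333 and 299 with those weights, 13 lower with presence of Y-linked reads as a term, and 1 lower with RLE factors, upper quartile factors, no filter or at least 10 counts in every library. Leaving out 1 library gave 0 to 2 lower, the 2 without wild-type replicate 3. Among the 10 genes, the number at an unadjusted p under 0.05 was 3 in edgeR, where 3.63% of all genes had one, compared with 1 in limma-voom (3.47%), 4 with quality weights (29.9%), 5 with the Y-linked term (*Atf3*, *Chac1*, *Trib3*, *Asns* and *Sesn2*; 10.95%) and 1 to 3 when 1 library was left out (1.85% to 16.6%). It was 1 without wild-type replicate 2 or 3 or *Ythdf2*-/- replicate 1 or 3, and 2 without wild-type replicate 1. With the replicate number as a block it was 0 (1.396%). Same-numbered libraries correlated at -0.25, -0.24 and -0.39 in their deviations. With 3 libraries per genotype, 1 of which stood apart, such values cannot settle whether the numbers pair the libraries. The number of genes without overlap was 3 to 6 when 1 library was left out, being 5 without *Ythdf2*-/- replicate 1, where 15.3% of all genes had none, and 6 without *Ythdf2*-/- replicate 2, where 22.2% had none. Signs turned only for small or sparse values. *Psat1* was -0.17 with quality weights and -0.0608 to 0.32 when 1 library was left out, and *Phgdh* 0.14 and -0.21 to 0.0623. On FPKM, which rest on few reads, *Atf4* was -0.66 with a pseudocount of 1 and -0.80 with 0.1, *Atf3* 0.51 and 1.43, and *Phgdh* 0.0416 and 0.0253, and *Trib3* was listed at 0. *Trib3* could not be tested with at least 10 counts in every library. Within libraries with and without Y-linked reads, a comparison added after seeing the data and without a test, the 10 genes had the direction of the whole except *Ddit3* (-0.0441 without such reads), *Psat1* (-0.23 with them) and *Phgdh* (0.0535 with them). The cause of these shifts was not tested. At 6 to 69 reads per library, counting error limits *Trib3* most.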

Other observations

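The genes most like *Asns*, *Chac1* and *Trib3* across the 6 libraries, among 10771 genes outside the lists with a mean of at least 5 CPM, were *Ptprk*, *Mid1ip1*, *Rap2c*, *Ogfrl1* and *Ttyh3*, with Pearson's r of 0.996, 0.992, 0.991, 0.990 and 0.990 with the mean z score of the 3 genes. *Ptprk*, a receptor tyrosine phosphatase, stood at 10.4, 10.8 and 5.21 CPM in wild-type and 15.2, 9.69 and 20.6 CPM in *Ythdf2*-/- replicates 1, 2 and 3. *Mid1ip1*, a regulator of acetyl-CoA carboxylase, stood at 189, 192 and 132 CPM in wild-type and 255, 179 and 283 CPM in *Ythdf2*-/- replicates 1, 2 and 3. As with *Asns*, *Ythdf2*-/- replicate 2 lay among or below the wild-type values in both.

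The letters GGACT, a frequent form of the sequence in which m6A is placed, were counted on the sense strand of the longest coding transcript of each gene in GENCODE M21. The median over the 10 genes was 1.07 per kilobase, compared with 1.04 over 12288 tested genes with a transcript, and 5 of 10 lay above the latter. *Sesn2* had 2.59, *Ddit4* 2.28 and *Asns* 1.98 per kilobase, above the upper quartile of 1.498, while *Phgdh* had 0.53 and *Atf4* 0.58, below the lower quartile of 0.651. Letters in a transcript do not show that it was methylated, and m6A was not analysed here.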
